A study of Drosophila melanogaster with 47 samples.

Results

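Binding of CG8478 in S2 cells was described by 1343 peaks, all those of the 1 list that the labels assign to the 2 CG8478 immunoprecipitates, out of 12745 peaks in the 16 lists of the series. The series mapped 14 regulators of Drosophila melanogaster by chromatin immunoprecipitation and sequencing (ChIP-seq), which uses an antibody to pull down a protein with its DNA and then reads that DNA. CG8478 was recovered from S2 cells with the antibody KW1-CG8478-D1 (Aviva), and 1 S2 input, chromatin taken without enrichment, accompanied the replicates. S2 is an established line of male embryonic origin, and no other list of the series came from it. Neither a treatment nor a tag is given in the labels for these samples. The 15 other lists came from Kc167 cells (Su(H), insv, h, dm), embryos (Stat92E and prd at 0 to 12 h, the latter with the antibodies RF12 and RF13, Cmi and br at 0 to 8 h, and Hr78 at 8 to 16 h), larvae of the stage labelled W3L (Notch, Hr78, AbdB, Lola) and adult females (cnc). Kc167 is an established line of female embryonic origin. The 6 lists of Stat92E, Notch, Lola, AbdB and Hr78 (embryos and larvae) were made with an anti-GFP antibody from animals labelled with GFP forms of these proteins, and the Cmi embryos were labelled Exd-GFP. CG8478 differs from every other list in regulator, material and antibody at once, and these cannot be told apart for it.

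CG8478 is a protein-coding gene known by its annotation number, with 4 transcripts and 4 proteins in RefSeq, and it lies on chromosome 3R. Regulators of transcription bind enhancers and promoters, and in Drosophila many unrelated regulators are recovered at the same accessible regions. Among the other proteins mapped, Su(H) is the DNA-binding factor of the Notch pathway, insv is a corepressor that acts with it, and the intracellular part of Notch joins Su(H) at target genes. Hr78 is a nuclear receptor, AbdB is a Hox protein, and Cmi belongs to a coactivator complex that methylates histones.

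Each peak carried the authors' score, which is −log10 p, and the authors' fold enrichment over background, a linear ratio. Both are values of the list as a whole. No value per replicate was given and read depth is unknown, so the spread between the replicates could not be measured. Whether the replicates were separate cultures is not stated. Intervals below are 95% intervals that cover counting error only, and neighbouring peaks are not independent of one another. The lists hold no expression values, so the cell line and the antibody's target could not be checked from them. Positions are 1-based in the build dm3, and the genes at them were not determined here.

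CG8478 binding ranged from a few strong, broad peaks to many weak, narrow ones. The score ran from 4.75 to 28.9 with a median of 6.23, and the middle 50% of peaks lay between 5.43 and 8.52. Fold ran from 1.73 to 5.81 with a median of 2.69, and 90% of peaks had a fold of at most 3.62. Width ran from 80 to 2698 bp with a median of 311 bp. Peaks of higher score were also the wider ones (Spearman's rho 0.62 over the 1333 peaks on the chromosome arms 2L, 2R, 3L, 3R, 4 and X) and those of higher fold (rho 0.90). Score, fold and width come from the same reads and are given as a description. The 10 peaks outside the arms entered no comparison.

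The 10 peaks with the highest score were spread over 5 arms, and their company ranged from no other regulator to 6. The strongest peak lay on 3L at 377729 to 378604, with a score of 28.9 and a fold of 5.81. It overlapped peaks of AbdB, Notch, insv, prd (RF12) and Hr78 of both stages, which were of middle or low rank in most of these lists. The larval Hr78 peak was number 1143 of 1288 and the insv peak number 164 of 218. The Notch peak there was number 531 of 2516, and the AbdB peak number 347 of 737. The next, on 3L at 17995665 to 17996604, had a score of 25.5 and no partner in any of the 15 lists.

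A different picture was seen on 2R at 15993662 to 15994430, where CG8478 had a score of 24.4 (place 4 in the list, fold 5.28). That region was number 1 in the AbdB, Notch and Stat92E lists, number 3 in the embryonic Hr78 list and number 17 in the Su(H) list. The larval Hr78 peak was number 87 of 1288 and the Cmi peak number 616 of 1685. The 7 partner summits there lay 16 to 52 bp from the CG8478 summit. On 3R at 8889687 to 8890453 (score 21.8) the partners likewise included high-ranking peaks, number 2 of AbdB, number 5 of Stat92E and number 14 of Notch, whose summit was 2 bp away. Larval Hr78 was number 91 of 1288 there, and embryonic Hr78 had numbers 45 and 614 of 731. Cmi was number 1357 of 1685 and prd (RF12) number 227 of 353.

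The remaining 6 of the 10 were of mixed kind. The peak on 3R at 12589389 to 12590308 (score 24.5) overlapped Cmi and prd (RF12). On X, the peak at 12558010 to 12560019 (score 23.3) overlapped Cmi, larval Hr78, Notch and Su(H), and that at 12645218 to 12646817 (score 22.4) overlapped Cmi, larval Hr78 and Su(H). On 2L, the peak at 11445652 to 11446588 (score 23.2) overlapped AbdB, Notch, Stat92E and Su(H). The peaks on 2L at 5460988 to 5461819 (score 23.2, fold 5.46) and on 3R at 660828 to 661369 (score 22.3, fold 5.16) overlapped nothing. The other private peaks among the 5 of highest score, private meaning that no other regulator's list overlapped, lay on 2R at 4519814 to 4520549 (score 21.4) and on 3R at 26625480 to 26626716 (score 19.0). The 5 peaks with the highest fold were all among these 10. The 5 widest were between 2010 and 2698 bp, lay on X (3 peaks) and 2R (2 peaks), and each overlapped Cmi, larval Hr78, Notch and Su(H). The widest lay on 2R at 16884160 to 16886857 (score 17.9), and the next on X at 2030347 to 2032854 (score 17.2), on X at 12628469 to 12630622 (score 18.004), on 2R at 14243540 to 14245640 (score 13.7) and on X at 12558010 to 12560019.

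**Figure D1:**
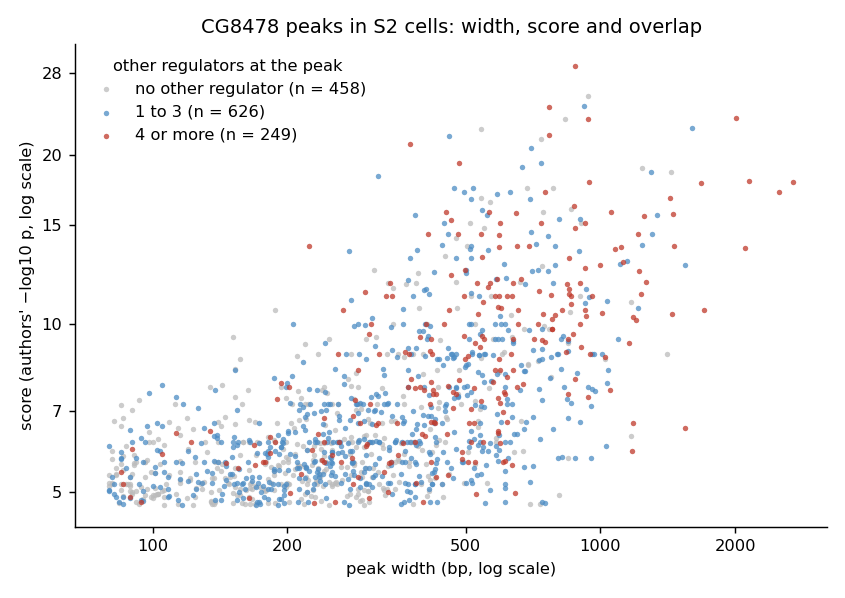
Each point is 1 of the 1333 CG8478 peaks on the chromosome arms, by width in bp and by the authors' score, both on log scales, coloured by the number of other regulators that overlapped it. Peaks with 4 or more other regulators (249) lay mostly among the wide ones of high score and private peaks (458) mostly among the narrow ones of low score, but private peaks were also found above a score of 20.

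About as large a share of CG8478 peaks as of the peaks in the other lists had company. Of the 1333 peaks on the arms, 875 overlapped a peak of another regulator by at least 1 bp (65.6%, exact Clopper-Pearson interval 63.0 to 68.2). The same measure over the 11129 peaks of the 15 other lists was 66.1%. The share of CG8478 peaks lies near this background and is not particular to CG8478. The 458 private peaks made up 34.4%, 242 peaks overlapped exactly 1 of the 13 other regulators, 203 overlapped 2, 181 overlapped 3, 130 overlapped 4, and 119 overlapped 5 or more (8.93%, 7.45 to 10.6). The number of regulators per peak was not counted for the other lists, so these counts have no background.

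The partners of CG8478 were unequal. As a background, all peaks were merged into regions, and the share of the 5283 regions without a CG8478 peak that held a given list was taken. Every such region holds at least 1 other list, whereas private CG8478 peaks hold none, so the background is set high. Notch overlapped 543 CG8478 peaks (40.7%, 38.1 to 43.4), against 35.8% of the regions without CG8478. Su(H) overlapped 472 (35.4%, 32.8 to 38.0), against 26.1%. Larval Hr78 overlapped 372 (27.9%, 25.5 to 30.4), against 14.8%. Cmi overlapped 364 (27.3%, 24.9 to 29.8), against 24.1%. AbdB overlapped 254 (19.1%, 16.98 to 21.3), against 8.33%, and embryonic Hr78 overlapped 175 (13.1%, 11.4 to 15.1), against 9.1%. For these 6 lists the interval lay above the background.

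Among the shorter lists, insv was the one whose share lay above its background, with 63 CG8478 peaks (4.73%, 3.65 to 6.01) against 2.63%. The shares of h (2.63%, 1.84 to 3.63, against 2.97%) and Stat92E (2.48%, 1.71 to 3.46, against 2.61%) had intervals that held the background. Those of Lola (3.30%, 2.41 to 4.41, against 4.58%), prd with RF12 (3.23%, 2.34 to 4.32, against 5.7%), br (3.08%, 2.22 to 4.15, against 5.94%), prd with RF13 (1.05%, 0.575 to 1.76, against 2.14%) and dm, the fly Myc protein (0.450%, 0.165 to 0.977, against 1.02%), lay below it. The lowest share relative to the background was that of cnc, the fly relative of Nrf2, with 44 peaks (3.30%, 2.41 to 4.41) against 8.31%.

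**Figure D2:**
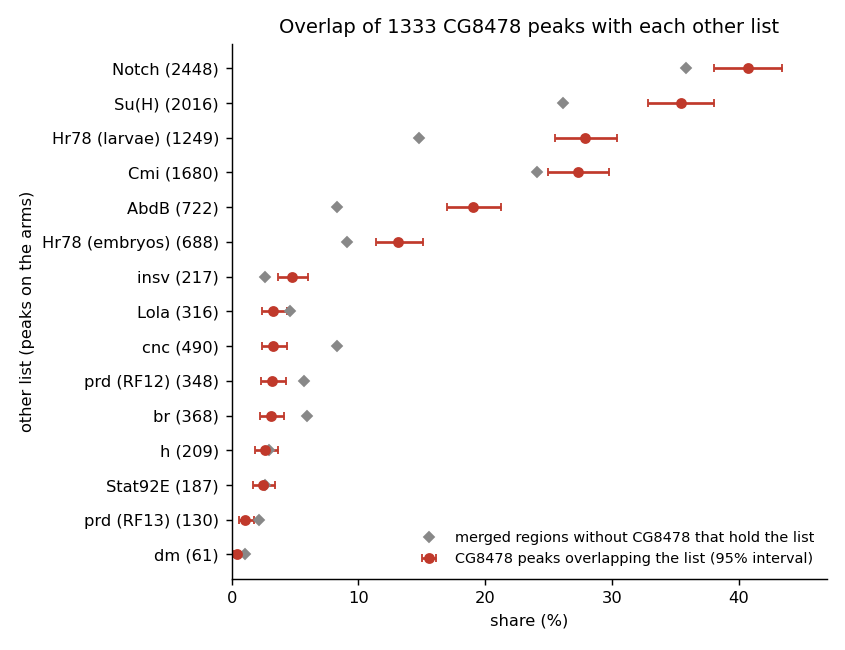
Red points give the share of the 1333 CG8478 peaks that overlapped each of the 15 other lists, with exact 95% intervals, and grey diamonds the share of the 5283 merged regions without CG8478 that held the list; the number of peaks in each list is in brackets. The red interval lies above the diamond for Notch, Su(H), larval and embryonic Hr78, Cmi, AbdB and insv, and below it for cnc, br, Lola, dm and prd with either antibody. The diamonds are set high, as private CG8478 peaks count among the points only. With both sides restricted to regions with another list, cnc stayed below, Lola lay above, and the intervals of br, dm and prd included no difference.

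Restricting both sides to regions with at least 1 other list changed part of this order. Of 770 regions with CG8478 and another list, 56.4% held Su(H), 30.2 percentage points more than regions without CG8478 (Newcombe interval of the difference 26.5 to 33.9). The difference was 30.0 points for larval Hr78 (26.4 to 33.7), 27.6 for Notch (23.9 to 31.1), 23.9 for AbdB (20.6 to 27.3), 17.2 for Cmi (13.6 to 20.9), 13.5 for embryonic Hr78 (10.6 to 16.7) and 6.07 for insv (4.22 to 8.31). Lola, h and Stat92E also had intervals above 0, with differences of 3.47, 1.57 and 1.93 points. For cnc the difference was −2.08 points (−3.76 to −0.014). The intervals of br, dm and prd with either antibody held 0. Regions with CG8478 were wider, with a median of 769.5 bp against 329 bp, and their part in these differences was not tested.

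Seen from the other side, CG8478 was found at 34.8% of the 722 AbdB peaks (31.3 to 38.4), 29.5% of larval Hr78, 28.1% of insv, 25.1% of Su(H), 25.1% of embryonic Hr78, 20.8% of Cmi and 20.3% of Notch peaks. For Stat92E it was 19.3%, for h 17.2% and for Lola 14.2%. It was found at 12.4% of prd peaks with RF12, 11.1% of br, 10% of prd with RF13, 9.84% of dm and 8.57% of cnc peaks.

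In 14 of the 15 other lists, peaks with CG8478 overlapped a further regulator more often than peaks without it, as the interval of the difference lay above 0. No other list was put in the place of CG8478, so this is not shown to be particular to CG8478. In the cnc list, 37 of 42 peaks with CG8478 had a further regulator (88.1%), against 26.8% of the 448 without (difference 61.3 points, 47.5 to 69.1). In the Cmi list the shares were 89.4% of 349 and 41.5% of 1331 (difference 47.9 points, 43.4 to 51.8), and in the Su(H) list 79.7% of 507 and 39.8% of 1509 (difference 39.9 points, 35.4 to 43.9). The exception was h, with 91.7% of 36 and 78.0% of 173 (difference 13.6 points, −0.948 to 22.3). In 12 of the 15 lists the median width was higher for peaks with CG8478, for example 544 against 382 bp in Cmi, and the part of width was not tested. The score within the list was also higher where CG8478 was present in Notch (median percentile 64.7 against 45.5), Cmi (60.9 against 47.4), Su(H) (59.6 against 48.0) and AbdB (56.9 against 45.6), with intervals of the medians that did not overlap. In the other 11 lists they overlapped.

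Larval Hr78 and AbdB were found at CG8478 peaks mostly together with Notch. Su(H) with no other list was the most frequent exact combination, at 103 of the 875 shared peaks (11.8%). It was followed by Notch alone (50), Cmi alone (43), and larval Hr78 with Notch (34). Exact combinations were not counted away from CG8478. Most CG8478 peaks with Su(H) had further company, as 54.2% of the 472 also had Notch. Of the CG8478 peaks with larval Hr78, 89.2% also had Notch, and of those with AbdB 94.1% did. Away from CG8478 these pairs were also frequent. Notch was found at 82.6% of the 880 larval Hr78 peaks without CG8478 (79.9 to 85.1) and at 88.9% of the 369 with it (difference 6.28 points, 1.96 to 10.1). It was found at 89.2% of the 471 AbdB peaks without CG8478 and at 94.0% of the 251 with it (difference 4.85 points, 0.431 to 8.75). Su(H) was present at 47.1% of the CG8478 peaks with Notch (42.9 to 51.4) and at 27.3% of those without (24.3 to 30.6), a difference of 19.8 points (14.5 to 24.96). In the Notch list, Su(H) was found at 47.8% of the 498 peaks with CG8478 and at 11.03% of the 1950 without (difference 36.8 points, 32.2 to 41.3). The Notch peaks with CG8478 were wider (median 625 against 351 bp) and of higher score, and the part of either was not tested.

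Peaks with Su(H) but not Notch and peaks with Notch but not Su(H) had different company. Larval Hr78 was found at 22 of 216 of the former (10.2%, 6.49 to 15.01) and at 170 of 287 of the latter (59.2%, 53.3 to 64.97). AbdB was found at 6 (2.78%) and 120 (41.8%), a difference of 39.0 points (32.6 to 45.0). The corepressor insv went the other way, at 25 peaks with Su(H) alone of the pair (11.6%, 7.63 to 16.6) and at 3 with Notch alone of the pair (1.05%, 0.216 to 3.02), a difference of −10.5 points (−15.5 to −6.41). For Cmi the shares were 30.1% and 36.9%, with an interval of the difference that held 0 (6.84 points, −1.53 to 14.9). Su(H) and insv lists share the Kc167 line and its input, and the Notch, Hr78 and AbdB lists share larvae and the anti-GFP antibody. These cannot be told apart from the regulators. The contrast was present away from CG8478 too. Of the 5283 regions without CG8478, 1184 held Su(H) but not Notch and 1696 Notch but not Su(H); larval Hr78 was in 1.60% and 32.5% of them, AbdB in 0.929% and 19.6%, and insv in 4.81% and 0.472%. Cmi was in 13.1% and 8.55% of them (difference −4.54 points, −6.93 to −2.24). Counted as regions with CG8478, in place of peaks, Cmi was in 26.9% of 186 and 38.8% of 240, with an interval of the difference above 0 (11.9 points, 2.85 to 20.5). The 256 CG8478 peaks with both Su(H) and Notch had the higher median score (7.51, 6.96 to 7.93), against 5.83 (5.66 to 5.98) for the 574 with neither.

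By antibody, 443 CG8478 peaks (33.2%) overlapped both an anti-GFP list and a list made with an antibody to the regulator itself. A further 165 (12.4%) overlapped only anti-GFP lists, of which there were 6, and 267 (20.03%) only lists of the other kind, of which there were 9. A Kc167 list was present at 494 peaks (37.1%) and was the only company at 121 (9.08%). Counted as regions with at least 1 other list, both antibody kinds were present in 54.5% of the 770 with CG8478 and in 11.9% of the 5283 without (difference 42.7 points, 39.0 to 46.2). Regions with a Kc167 list made up 59.6% and 30.4% (difference 29.2 points, 25.5 to 32.9), and those with Kc167 lists alone 13.9% and 20.01% (difference −6.11 points, −8.63 to −3.28). The greater width of regions with CG8478, given above, applies here too.

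CG8478 peaks of higher score were shared more often. Sharing by score was not measured within the other lists, so this is not shown to be particular to CG8478. In 4 bins of equal numbers of peaks, from the lowest to the highest score, 48.9%, 62.2%, 71.2% and 80.2% of peaks overlapped another regulator, and 5.41%, 12.0%, 18.9% and 38.3% overlapped 4 or more. The top and bottom bins differed by 31.3 points (24.2 to 37.9). Their scores ran from 8.58 to 28.9 and from 4.75 to 5.43. Shared peaks had a median score of 6.68 (6.48 to 6.995) and private peaks 5.72 (5.63 to 5.95), and the median folds were 2.76 (2.74 to 2.82) and 2.59 (2.55 to 2.61). Peaks with exactly 5 other regulators had a median score of 10.3 (8.83 to 11.2), and those with 6 or more 9.59 (8.26 to 11.6).

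The lists with the most shared CG8478 peaks all had higher shares at higher score, by amounts whose intervals overlapped. Notch went from 24.0% of peaks in the bottom bin to 58.1% in the top, larval Hr78 from 12.9% to 45.2%, AbdB from 8.11% to 38.3% and embryonic Hr78 from 3.60% to 29.3%. Su(H) went from 24.9% to 44.9%, a difference of 19.99 points (12.8 to 26.9), and Cmi from 15.02% to 39.2%. The difference for Notch was 34.1 points (26.8 to 40.8), and its interval just overlapped that of Su(H). Stat92E was at 2 of the 333 bottom peaks and 25 of the 334 top peaks. For br, cnc, h, dm and prd with RF13 the interval of the difference between these bins held 0. Shares of a few percent leave little room for a difference in points.

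**Figure D3:**
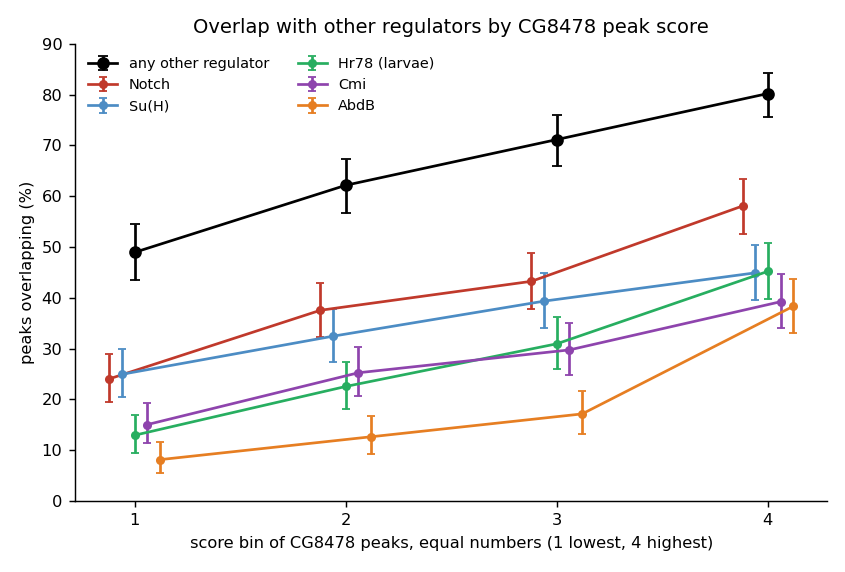
The share of CG8478 peaks that overlapped any other regulator (black) and each of 5 lists (colours) is plotted for 4 bins of the CG8478 list by score, with exact 95% intervals. The black line goes from 48.9% to 80.2%, and AbdB goes from 8.11% to 38.3% with its main step between bins 3 and 4.

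Width went with the score and with sharing. Median width was 187 bp in the bottom bin and 591 bp in the top, and 232.5 bp for private against 387 bp for shared peaks. With every peak of every list set to 400 bp around its centre, the shares of the 4 bins were 51.7%, 63.4%, 71.8% and 79.3%.

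The distance from the CG8478 summit to that of the partner differed between lists. Peak width sets the distances possible, so these are given as a description. The median distance was 77 bp for Notch (quartiles 18 and 177 bp, 543 pairs), 79 bp for AbdB, 81 bp for larval Hr78, 94.5 bp for Su(H) (22 and 197 bp, 472 pairs) and 104 bp for Cmi. The shortest were those of Stat92E (37 bp, 33 pairs), prd with RF12 (54 bp, 43 pairs) and embryonic Hr78 (58 bp, 175 pairs). Summits within 100 bp made up 78.8% of Stat92E pairs (61.1 to 91.0), 56.4% of Notch pairs (52.1 to 60.6) and 52.1% of Su(H) pairs (47.5 to 56.7). For cnc and Lola they made up 27.3% (14.96 to 42.8) and 22.7% (11.5 to 37.8), with median distances of 175 and 167.5 bp. The farthest were those of prd with RF13 (298.5 bp, 14 pairs, 21.4% within 100 bp), and br had a median of 167 bp (41 pairs, 39.0%).

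**Figure D4:**
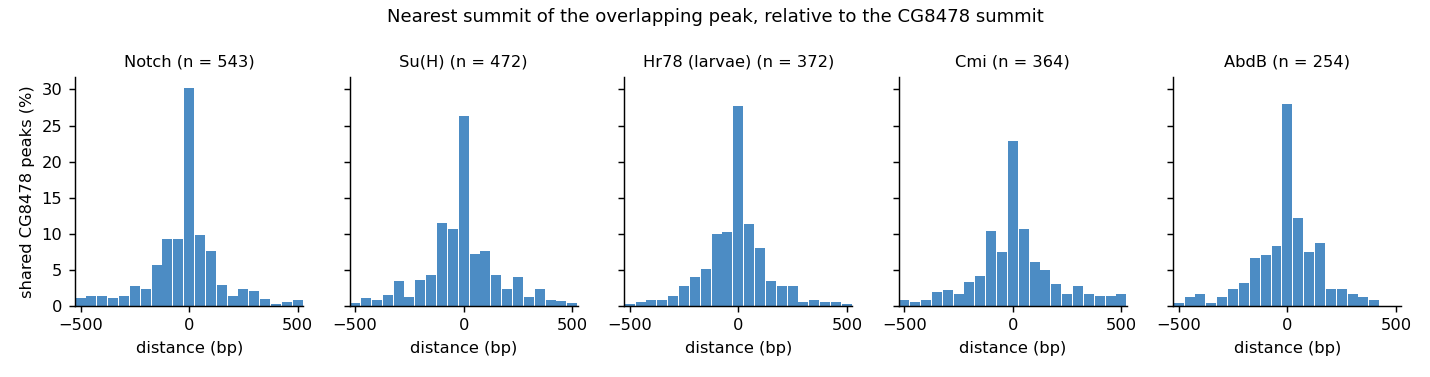
For the 5 lists with the most shared peaks, bars give the share of shared CG8478 peaks by distance in bp from the CG8478 summit to the nearest summit of an overlapping peak, in bins of 50 bp. The central bin is the highest in all 5 panels, holding 30.2% of Notch pairs, 27.7% of larval Hr78 pairs and 26.3% of Su(H) pairs.

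The CG8478 peaks with the most company overlapped 6 to 8 other regulators. The peak on X at 12628469 to 12630622 (score 18.004, fold 4.63) and the peak on 3R at 25598442 to 25599222 (score 9.78, fold 2.33) each overlapped 8 other regulators. Those on X were AbdB, Cmi, Hr78 of both stages, Notch, Su(H), br, cnc and h, and those on 3R were Cmi, larval Hr78, Lola, Notch, Su(H), br, h and insv. Peaks with 7 lay on X at 2017209 to 2018151 (score 17.9), 8544810 to 8545262 (score 15.8) and 16110655 to 16111865 (score 14.4), and on 3L at 18752179 to 18752746 (score 11.8). The other 4 of the 10 named for company had 6 regulators. They were the peaks on 2R at 15993662, on 3R at 8889687 and on X at 2030347 given above, and the peak on 2R at 9844308 to 9845983 (score 17.9). All 10 overlapped Notch and larval Hr78. They were chosen for their number of partners, so lists with many peaks are likely to recur among them by the choice itself.

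CG8478 peaks were unevenly placed along the arms. Single CG8478 peaks are set here against merged regions, which are a different unit. The arm 3R held 367 peaks (27.5%, 25.1 to 30.0), against 22.8% of the regions without CG8478, and 2R held 298 (22.4%, 20.1 to 24.7), against 18.7%. The X chromosome held 258 (19.4%, 17.3 to 21.6), against 21.1%. The arms 3L with 222 (16.7%, 14.7 to 18.8, against 19.4%) and 2L with 181 (13.6%, 11.8 to 15.5, against 16.4%) held fewer. Chromosome 4 held 7 peaks (0.525%, 0.211 to 1.08), against 1.51%, and 6 of them scored between 4.76 and 6.66. The remaining one, at 1009966 to 1010442, had a score of 14.2 and no partner.

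CG8478 peaks were shared less often on X than elsewhere. Sharing by arm was not measured for the other lists, so this is not shown to be particular to CG8478. On X 150 of 258 peaks overlapped another regulator (58.1%, 51.9 to 64.2), against 67.4% of the peaks on the other arms (difference −9.30 points, −15.98 to −2.78). Their median score was 6.65 (6.20 to 6.82). Without the 8 large X clusters described next and the 5 on other arms, the shares were 61.4% and 67.4%, and the interval of the difference held 0 (−5.99 points, −13.9 to 1.49).

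CG8478 peaks lay in runs, and on X more often than on the other arms. Neighbours within 10000 bp of each other were joined, which left 470 isolated peaks, 166 pairs and 116 clusters of 3 or more with 531 peaks (39.8%, 37.2 to 42.5). On X 53.5% of peaks lay in such clusters (47.2 to 59.7), against 36.6% on the other arms (difference 16.9 points, 10.2 to 23.6), and the median gap between neighbours was 7243 bp, against 15554 bp on 2R, 17304.5 bp on 3R, 25208 bp on 3L and 39635 bp on 2L. Clusters of 3 or more were not counted by arm for the other lists, so this is not shown to be particular to CG8478. Peaks are counted singly although those of a cluster enter together, so these intervals are too narrow. Of the 13 clusters of 8 or more peaks, 8 were on X, with 82 of the 134 peaks. Of all gaps 13.1% were 200 bp or shorter, so some runs hold peaks that almost touch. With peaks up to 200 bp apart joined first, a setting chosen after the data were seen, 42.4% of the joined regions on X and 26.3% of those elsewhere lay in clusters (difference 16.1 points, 9.05 to 23.3), and 5 clusters of 8 or more remained, 3 of them on X.

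The largest clusters differed in their company. On 3R, 14 peaks lay between 12047524 and 12076184 with scores up to 18.7, and 9 of them overlapped Cmi and 7 Notch. Another 14 lay on 3R between 5902469 and 5935282, and 8 of these overlapped Su(H) and 7 Notch. On X, 13 peaks lay between 7588307 and 7604316, of which 8 overlapped Su(H) and 1 Notch. A further 13 on X between 3666201 and 3680371 overlapped Su(H) in 10 cases and Cmi in 5, and none overlapped Notch. The fifth cluster by size, with 11 peaks on X between 12610019 and 12633469, held the peak with 8 regulators, but 7 of its 11 peaks were private.

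Outside the rule for named clusters, 3 were singled out after their values were seen. On X between 3272295 and 3284493, all 10 peaks were private, with scores from 4.76 to 9.40. They formed 4 regions once peaks up to 200 bp apart were joined. On 3L between 21000914 and 21020006, all 8 peaks overlapped Su(H) and 7 of them Notch. On X between 10418338 and 10441350, 7 of 8 peaks were private and the highest score was 17.5. Large clusters also neighboured one another. The X interval from 12543509 to 12655385 held 3 of them and 30 CG8478 peaks, 16 shared and 14 private, including the fifth and the eighth peak of the whole list by score. The X interval from 3634142 to 3680371 held 2 of them and 21 peaks, 17 shared and 4 private.

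**Figure D5:**
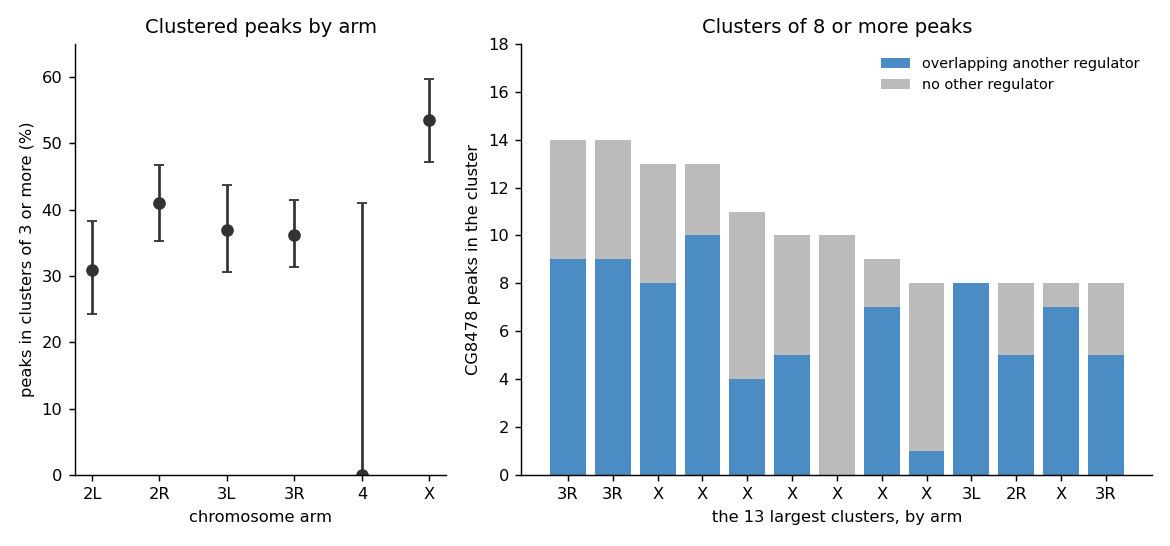
The left panel gives the share of CG8478 peaks in clusters of 3 or more (neighbours within 10000 bp) on each arm, with exact 95% intervals; X stands at 53.5%, and on chromosome 4 none of 7 peaks was clustered. The right panel gives the number of CG8478 peaks in each of the 13 clusters of 8 or more, split into peaks with and without another regulator; 8 of the 13 are on X, and 1 of these has no shared peak.

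Isolated and clustered peaks had medians of score and width whose intervals overlapped. The median score was 6.38 (6.15 to 6.93) for isolated peaks and 6.46 (5.91 to 6.81) for peaks in clusters of 8 or more, and the median widths were 322 bp (300 to 347) and 360.5 bp (297 to 418). Peaks in clusters of 8 or more were shared in 58.2% of cases, against 67.7% of isolated peaks (difference −9.45 points, −18.8 to −0.334). The interval counts these 134 peaks singly, although they came from 13 clusters. Sharing within those clusters ran from 0 of 10 peaks to 8 of 8, so the interval is too narrow for a statement about clusters. Sharing did not go one way with cluster size: it was 60.5% for pairs (55.1 to 65.8), 70.03% for clusters of 3 to 7 (65.3 to 74.5) and 67.04% for all clusters of 3 or more (62.9 to 71.03).

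At equal list length, clusters were more frequent in the CG8478 list than in the Notch and larval Hr78 lists, the lists compared being these, Su(H) and Cmi. With 1249 top-scoring peaks per list, 38.4% of CG8478 peaks lay in clusters of 3 or more, against 14.1% for Notch (difference 24.3 points, 21.0 to 27.6) and 22.9% for larval Hr78 (difference 15.5 points, 11.9 to 19.1). Su(H) with 34.7% (difference 3.76 points, −0.014 to 7.52) and Cmi with 38.5% (difference −0.080 points, −3.89 to 3.73) had intervals that held 0. Clusters of 8 or more held 10.2% of CG8478 peaks at this length, against 6.81% for Cmi (difference 3.44 points, 1.25 to 5.65), 4.003% for Su(H) (difference 6.25 points, 4.25 to 8.29), 0.721% for larval Hr78 (difference 9.53 points, 7.84 to 11.4) and 0 of 1249 for Notch, which allows up to 0.295% (exact upper bound). These peaks came from 13 CG8478, 10 Cmi, 5 Su(H) and 1 larval Hr78 clusters. All intervals of this paragraph count peaks singly and are too narrow for a statement about clusters. In the whole lists, whose lengths differ, CG8478 had 39.8% of its peaks in clusters of 3 or more, below Su(H) with 51.7% (difference −11.9 points, −15.3 to −8.47) and Cmi with 48.04% (difference −8.20 points, −11.7 to −4.63). The shares in clusters of 8 or more were 10.1% for CG8478, 11.2% for Cmi (difference −1.14 points, −3.33 to 1.10) and 8.38% for Su(H) (difference 1.67 points, −0.310 to 3.74). In the whole lists, X held 82 of the 134 CG8478 peaks in such clusters, 60 of 169 for Su(H) and 27 of 188 for Cmi. For Notch it held 0 of 24 and for larval Hr78 0 of 9. Of all peaks on the arms, X held 258 of 1333 for CG8478, 450 of 2016 for Su(H) and 326 of 1680 for Cmi. Peaks up to 200 bp apart were not joined first in these comparisons. How far the differences rest on closely split peaks was not tested.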

How the data were processed

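Per the submitters' processing notes, CASAVA 1.7.0, BWA, MACS2 and the build dm3 were used; which settings and thresholds applied, and how the input entered, is not stated there. Per the labels, 1 deposited list stands for both CG8478 replicates, and whether reads were pooled is not stated. Libraries were made by tagmentation, per the labels' protocols. From the column layout of the deposited lists, the authors gave each peak a fold enrichment (a linear ratio), a −log10 p and a summit offset. Peak names carry ranks up to 1347, and the 4 missing ranks are not analysed here.

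Lists were read with Python 3.11.15 (numpy 2.4.6, scipy 1.17.1, pandas 2.3.3, statsmodels 0.14.6, matplotlib 3.10.9). Peaks on 6 arms were compared, and an overlap of at least 1 bp counted as shared. The lists of Hr78 and of prd count as 1 regulator each. Shares have exact Clopper-Pearson intervals, differences Newcombe intervals and medians order-statistic intervals, without p-values. Regions named were the 10 peaks of highest score, 5 of highest fold, 5 widest, 10 with most regulators, 5 best private ones and 5 largest clusters. Members, lists and rules were chosen with earlier results of these data known. No dm3 genome or annotation was used, so no sequence or gene is given. The joining of peaks up to 200 bp apart, the intervals that group large clusters up to 100000 bp apart, the Su(H) and Notch classes and the comparison of other lists' peaks, pairs and antibody kinds with and without CG8478 were chosen after the data were seen. Alternatives were other definitions of overlap, stronger peaks only, other cluster distances, and other lists left out. Overlaps, intervals and clusters were tested on simulated data. The draws used for the intervals were independent, unlike neighbouring peaks, so the intervals were not tested for such dependence.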

Additional observations from a re-analysis of the deposited data

Results flagged for a closer look

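Outside the chromosome arms, 10 CG8478 peaks lay on sequence that entered no comparison, and they are given here because a signal was present in it. The labels pair the S2 input with this list, but values of the input were not used here. On the mitochondrial genome 3 peaks were listed, with scores of 12.5, 8.46 and 6.62 and folds of 3.92, 2.44 and 2.52, and each overlapped a dm peak. That of lowest score also overlapped embryonic Hr78. Only 61 of the 100 dm peaks lay on the arms, so dm peaks are frequent outside them, and the dm overlap was not tested. Partners on the other sequences were Notch, AbdB, Su(H), embryonic Hr78 and dm. The unplaced sequences U and Uextra held 3 and 2 peaks, with scores from 5.50 to 7.19, and 3RHet and 3LHet held 1 each, with scores of 6.15 and 5.69. The median width of the 10 was 92.5 bp, against 313 bp on the arms, and the median score was 6.57, against 6.22.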

How the results depend on the processing

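The share of CG8478 peaks with another regulator (65.6%) was 72.5% with peaks up to 500 bp apart counted, 61.5% with summits within 250 bp, 75.7% in the top-scoring 50% of CG8478, 61.2% in the top-scoring 50% of every list and 19.0% with the 100 best peaks of each other list. With each other list left out in turn it ranged from 57.9% (without Su(H)) to 65.6%. In the same order of settings, Notch was found at 46.9%, 33.6%, 50.7%, 38.1% and 2.63% of CG8478 peaks, Su(H) at 42.0%, 29.6%, 42.1%, 24.7% and 3.60%, larval Hr78 at 32.8%, 24.1%, 38.1%, 23.7% and 1.95%, and Cmi at 31.3%, 20.8%, 34.5%, 23.7% and 3.00%. Notch stood above Su(H) in all of these but the last, which evens out list length by its construction and put AbdB on top. With 50% overlap of the shorter peak and with peaks of 400 bp these shares stayed within their intervals. Of the 77 shares of the 11 other lists under the 7 settings, 47 stayed within the interval. With 500 bp allowed, shared minus private medians fell to 0.68 in score, 0.15 in fold and 124.5 bp in width (from 0.96, 0.17 and 154.5 bp), and the direction held under the other 3 definitions. The rise of sharing over score bins held with bins by fold. Clusters of 3 or more numbered 39 in the top-scoring 50%, which holds fewer peaks, against 116. The cause of the other changes was not tested. No paired analysis was possible because the replicates of a group share 1 list. Leaving out a replicate could not be done for the same reason. Read depth is unknown.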

Other observations

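The authors' scores were not finely graded at the low end. The 1333 CG8478 peaks on the arms had 841 distinct scores, and 55 peaks had the same score of 6.15, so the order of peaks near the median is partly a matter of ties. Summits lay near the middle of their peaks, at a median of 49.4% of the width. The peaks on the arms covered 527636 bp in all.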
